A study of Mus musculus with 8 samples.

Results

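The genes described here are 9 genes of retinoid transport, metabolism and nuclear reception in the mouse eye: Rbp4, Stra6, Crabp1, Crabp2, Rdh10, Dhrs3, Rarb, Rarg and Rxra. They were chosen by symbol from the 23420 named genes of the table, with earlier results of these data known. RNA sequencing compared the limbal rim, which is the ring of tissue where the cornea meets the sclera and conjunctiva, with the corneal button inside that ring. Both tissues came from wild type C57BL/6J mice 8 weeks of age that received no treatment named in the labels. Tissue from 16 eyes was pooled as limbal rims (called limbus) and as corneal buttons (called cornea) before RNA extraction. The labels list 4 samples per tissue, but the values in the table are built from 1 library of each, so every difference below has no replicate check and no p-value is given.

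Retinol (vitamin A) circulates bound to a carrier protein and enters cells through a membrane receptor. Inside the cell it is held by binding proteins, oxidized to retinal and then to retinoic acid, and retinoic acid is passed to nuclear receptors that bind DNA as pairs. The pathway is known for keeping the surface of the eye a moist, non-keratinized epithelium, and several of its own genes respond to retinoic acid, so that supply and breakdown are adjusted to each other.

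In this comparison the retinol receptor gene Stra6 was 28.2-fold higher in the limbus than in the cornea (95% interval 13.4 to 71.2). The retinoic acid carrier gene Crabp2 was 2.73-fold higher in the limbus (2.16 to 3.46) and the receptor gene Rarb 2.57-fold higher (1.84 to 3.62). The abundant receptor genes Rarg and Rxra differed between the tissues by 1.06-fold and 1.09-fold. The serum carrier gene Rbp4 had 1 read in all. Intervals are exact and cover counting error only, that is, the uncertainty from the number of reads and not that between animals. In bulk tissue, fewer cells of a type and less RNA per cell cannot be told apart.

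Rarb is a textbook target of retinoic acid through a response element made of a pair of direct repeats spaced by 5 bases (DR5), and the same type of element is known at Cyp26a1, the gene for a retinoic acid hydroxylase. Because these are the genes of the pathway in which the repeat was found in the RefSeq promoter windows (build GRCm38.p6), 30 bases around it are printed here 5′ to 3′ along the strand of each gene, with the repeat in capitals. The Rarb stretch lies at chr14:16575506-16575535 on the minus strand and the Cyp26a1 stretch at chr19:37697770-37697799 on the plus strand.
Rarb: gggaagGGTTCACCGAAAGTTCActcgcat
Cyp26a1: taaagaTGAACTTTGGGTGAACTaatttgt
The unit searched was AGGTCA, also starting with G in place of A, with GTTCA in place of GGTCA, or with both changes, and repeats were sought on both strands in windows from 250 bases before to 50 after each start site. In Rarb the repeat reads along the strand of the gene and lies 53 to 37 bases before the RefSeq start, within a stretch that the GENCODE annotation counts as untranslated region of 2 of its transcripts. In Cyp26a1 it reads on the opposite strand, 32 to 16 bases before the start, outside any annotated exon of that gene. Windows were found for 7 of the 9 members, the exceptions being Crabp2 and Rdh10, and for 68 genes of all pathway lists, members included. The DR5 letters occurred in 32 of all 32851 windows (0.0974%), and Rarb was the 1 member among them. Repeats spaced by 1 base (DR1, 0.222% of windows) or 2 bases (DR2, 0.268%) were in no member window. A match describes the letters of the window and is not evidence of binding.

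Named genes took 26104317 corneal and 21182025 limbal reads, which were normalized by a size factor for each library. The read number of each gene was derived from the deposited values and is not a deposited count, and where 2 numbers are given for a gene the cornea comes first. The corneal epithelial markers were all higher in the cornea (6 of 6), among them Krt12, a keratin of the corneal epithelium, with 1137735 corneal and 233324 limbal reads. Of the marker lists of other cell types, those of skeletal muscle, vessel endothelium, fibroblasts other than keratocytes, photoreceptors, conjunctiva, melanocytes, macrophages, retinal pigment epithelium, corneal endothelium and Schwann cells had higher sums in the limbus. Of these, the sum of normalized reads differed most for skeletal muscle, 86.1 in cornea against 11241 in limbus with 6 of 6 markers higher, and least for Schwann cells, 4253 against 7060. The part of these tissues in the results below was not tested. Keratocyte markers had nearly level sums (55170 and 61674), of which Kera was higher in the cornea and Ptgds in the limbus, and adipocyte markers were close to absent, with Plin1, Cidec and Retn listed at 0.

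**Figure D1:**
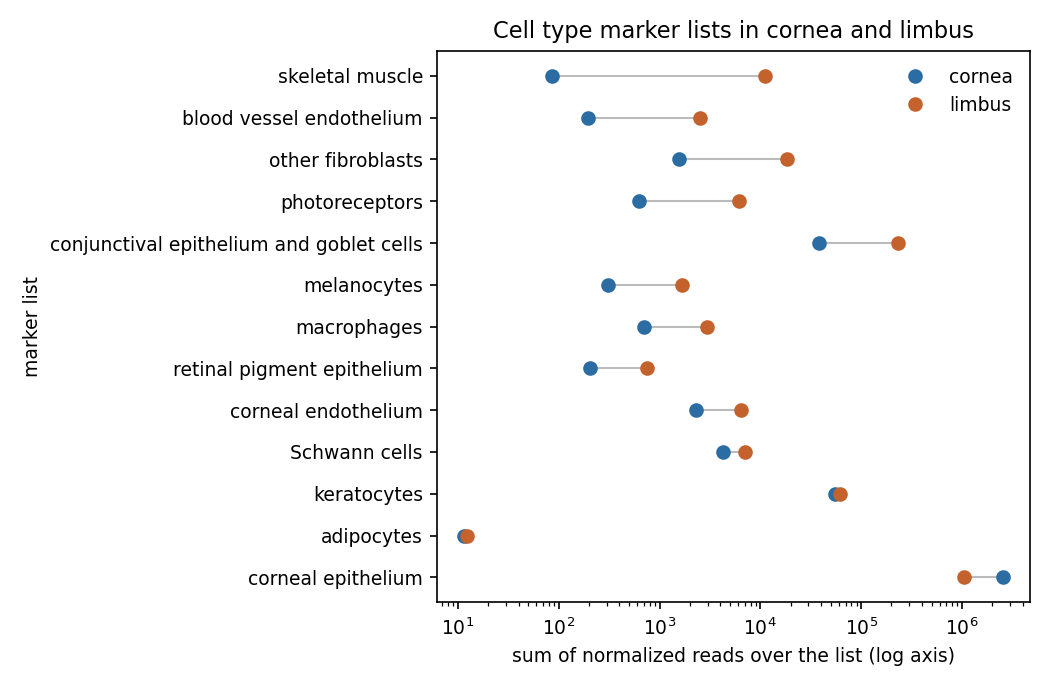
Sums of normalized reads (horizontal log axis) over lists of cell type marker genes (vertical axis), with cornea in blue and limbus in orange and 1 library per tissue. The corneal epithelium list is lower in the limbus, keratocytes and adipocytes are nearly level, and the 10 other lists are higher in the limbus.

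Levels of different genes were compared as normalized reads per kilobase of merged exons (kb). In the cornea Rarg had the highest level of the 9 members with 1885 per kb, followed by Rxra with 775, Dhrs3 with 717, Crabp1 with 129, Rdh10 with 99.8 and Crabp2 with 75.4. Rarb had 9.55 per kb and Stra6 1.16. The levels of Crabp1 and Rdh10, of Rdh10 and Crabp2, and of Stra6 and Rbp4 could not be separated in the cornea, since their intervals overlapped.
In the limbus Rarg was again first with 1784 per kb, but Dhrs3 with 1035 came before Rxra with 842. Crabp2 came next with 206 per kb, above Rdh10 with 157 and Crabp1 with 133, and the intervals of Rdh10 and Crabp1 overlapped. Stra6 with 32.8 and Rarb with 24.5 per kb had overlapping intervals as well.

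**Figure D2:**
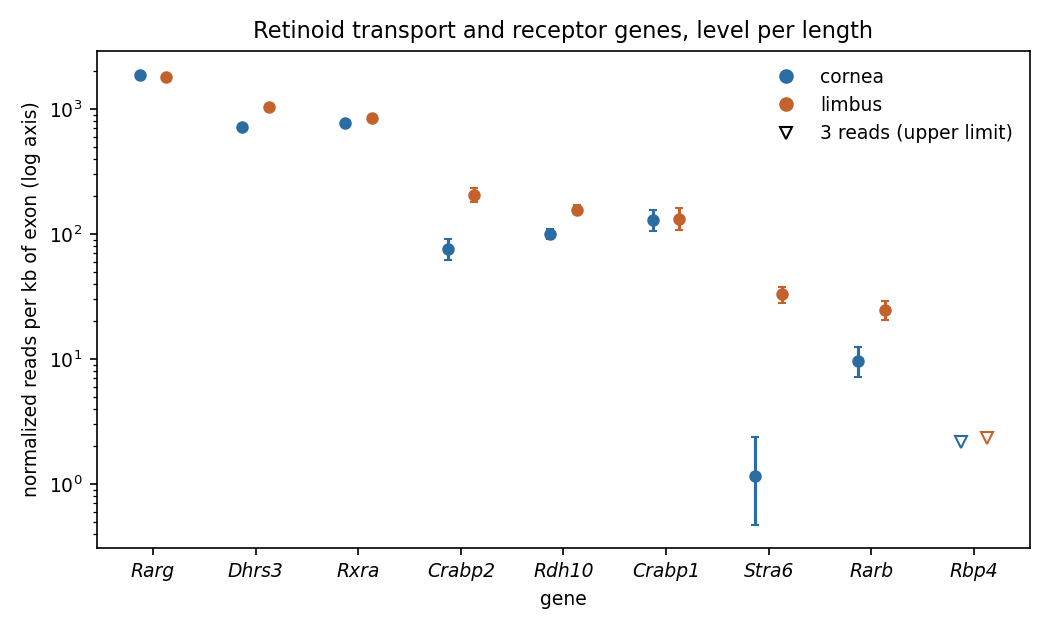
Level of each gene as normalized reads per kb of exon (vertical log axis) in the cornea (blue) and limbus (orange), with 95% Poisson intervals that cover counting error only. Triangles mark a set level of 3 reads for Rbp4, which is not the end of its 95% interval. The gap between tissues is widest for Stra6 (1.16 against 32.8 per kb).

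Among genes with more than 3 reads in each tissue, 8 of the 9 members could be given a ratio. Of these, 3 were at least 2-fold higher in the limbus (Stra6, Crabp2 and Rarb) and 0 were at least 2-fold higher in the cornea, where over all 13862 such genes 15.5% and 8.99% were. The interval excluded a ratio of 1 towards the limbus for 6 members and towards the cornea for 1, Rarg, against 33.2% and 40.6% of all genes. The median log2 ratio of limbus over cornea was 0.59 over the 8 members and 0.53 with Rbp4 counted at 3 reads in both tissues, and the median of all 13862 genes was -0.05. Scaling to total reads in place of size factors adds 0.21 to every log2 ratio, which turns the sign of Rarg and of no other member.

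**Figure D3:**
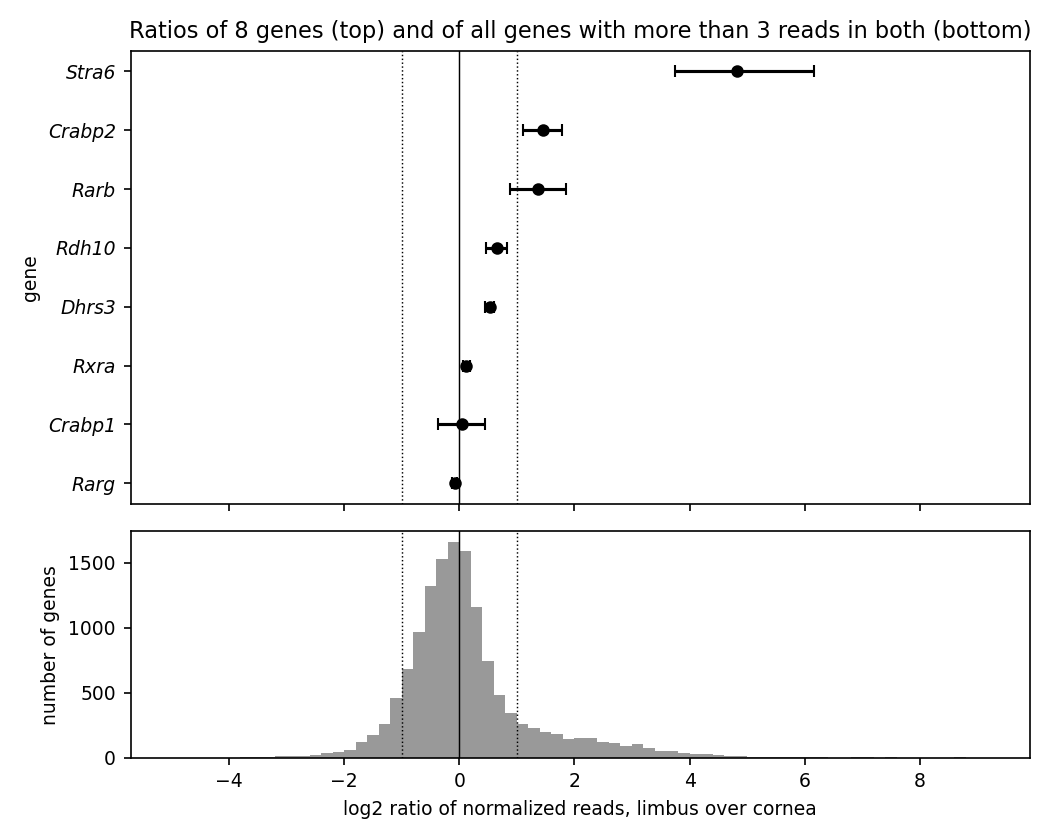
Log2 ratio of normalized reads, limbus over cornea (horizontal axis), for the 8 members with more than 3 reads in both tissues, with 95% exact intervals (top), and the number of genes at each ratio among 13862 genes (bottom). Dotted lines mark 2-fold; Stra6 lies in the upper tail at 4.82, and Rarg is at -0.08, which becomes 0.13 with scaling to total reads.

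Rbp4 (chr19:38116629-38125281, minus strand) encodes the retinol carrier of the blood, made mainly by the liver. It had 0 corneal and 1 limbal reads. The exact Poisson interval of the corneal 0 reaches 2.66 normalized reads per kb, above the set level of 3 reads (2.16 per kb). No ratio is given because neither tissue had more than 3 reads.

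Stra6 encodes the membrane receptor that takes retinol from its serum carrier into the cell. It had 7 corneal and 185 limbal reads, a log2 ratio of 4.82 (3.75 to 6.15). The limbal value thus stood far above the corneal one, and the ratio was higher than that of 99.4% of all genes. The gene spans chr9:58063788-58153996 on the plus strand and shares no exon bases with either gene that overlaps it, Ccdc33 or Gm16131. Cells known to use Stra6 include the retinal pigment epithelium, whose 6 markers summed to 206 corneal and 746 limbal normalized reads, with 4 of them at least 2-fold higher in the limbus. The Stra6 reads for each read of those markers were 7.80-fold more in the limbus (3.63 to 19.9). The same ratio was 5.22-fold higher for the melanocyte markers (2.45 to 13.3), which summed to 307 corneal and 1658 limbal normalized reads, and 2.16-fold higher for the vessel endothelium markers (1.01 to 5.53) when all 6 were summed (193 and 2528). Kdr alone gave 170 of the 200 corneal vessel reads and 278 of the 2445 limbal ones, and without it the direction turned, to 0.366 of the corneal value with an interval that reaches 1 (0.155 to 1.001). Left out in the same way, the marker with the most corneal reads changed the ratio to 7.90-fold for the pigment epithelium (3.63 to 20.4). For the melanocytes it became 3.96-fold (1.83 to 10.2). The pigment epithelium markers Best1 (38 and 54 reads) and Rrh (50 and 40) did not differ beyond counting error, and both stayed in that sum. Ratios within a library do not depend on the scaling.

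Crabp1 and Crabp2 encode small cytoplasmic proteins that bind retinoic acid, and Crabp2 is known for carrying it to the receptors in the nucleus. Crabp2 (chr3:87948666-87953376, plus strand) had 103 corneal and 263 limbal reads, a log2 ratio of 1.45 (1.11 to 1.79) that exceeded those of 88.6% of genes. Crabp1 (chr9:54764748-54773110, plus strand) had 107 and 103 reads, a log2 ratio of 0.04 (-0.36 to 0.44). The Crabp1 interval includes equal levels and excludes a 2-fold difference in either direction. Thus Crabp2 took 49.0% of the reads of the pair in the cornea (42.1 to 56.0) and 71.9% in the limbus (66.9 to 76.4), and the ratio of Crabp2 to Crabp1 was 2.65-fold higher in the limbus (1.83 to 3.84). Per kb the order was reversed between the tissues: Crabp1 was 1.71-fold above Crabp2 in the cornea (1.29 to 2.27), and Crabp2 was 1.55-fold above Crabp1 in the limbus (1.23 to 1.96). The sum of the conjunctival and goblet cell markers differed by more than Crabp2 did, with 5 of 7 at least 2-fold higher in the limbus. Of the rest, Muc5ac had 1 read in each tissue. Spdef had 18 and 25 reads, and its ratio of 1.48-fold was smaller than that of Crabp2, with an interval around 1 (0.778 to 2.89). The Crabp2 reads for each read of all 7 markers were 0.445 of the corneal value (0.353 to 0.565). Without Krt13, the marker with the most corneal reads, the value was 0.0898. Krt19 in that list (1417 and 30740 reads) was also read by the authors as a marker of limbal epithelial stem cells. No list of limbal epithelial markers was made.

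Rdh10 and Dhrs3 encode enzymes that work in opposite directions, since Rdh10 oxidizes retinol to retinal and Dhrs3 reduces retinal to retinol. Rdh10 (chr1:16105774-16133734, plus strand) had 429 corneal and 630 limbal reads, and was 1.57-fold higher in the limbus (1.39 to 1.78). Dhrs3 (chr4:144892827-144928209, plus strand) had 2169 and 2931 reads and was 1.44-fold higher in the limbus (1.37 to 1.53). Both limbal excesses passed counting error and stayed under 2-fold. The ratio of Rdh10 to Dhrs3 was 1.09-fold higher in the limbus with an interval that includes 1 (0.948 to 1.25), and per kb Dhrs3 was above Rdh10 by 7.19-fold in the cornea and 6.61-fold in the limbus.

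The retinoic acid receptors (RARs) bind DNA together with retinoid X receptors (RXRs). Rarg (chr15:102234938-102257517, minus strand) encodes RAR gamma, the main RAR of skin and other epithelia. It had 8302 corneal and 7353 limbal reads, a log2 ratio of -0.08 (-0.12 to -0.03), or 0.13 with scaling to total reads. Rxra (chr2:27676440-27762957, plus strand), which encodes RXR alpha, had 4378 and 4451 reads, a log2 ratio of 0.12 (0.06 to 0.18). Both receptors were thus abundant and close to level, and Rxra relative to Rarg was 1.15-fold higher in the limbus (1.09 to 1.21).

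Rarb encodes RAR beta, and carries the DR5 repeat printed above. It had 52 corneal and 125 limbal reads, a log2 ratio of 1.36 (0.88 to 1.86) that exceeded those of 87.8% of genes. The interval lies above equal levels but reaches below 2-fold. The gene spans chr14:16430839-16819156 on the minus strand, and 1793 of its 5265 exon bases are shared with Top2b on the opposite strand, which had 3782 corneal and 2307 limbal reads. The libraries were made with a stranded kit, but whether counting used strand is not given in the sources used here. Reads of both genes over these bases may therefore not have been told apart. The sum of the fibroblast markers other than those of keratocytes differed by more than Rarb did, with 1544 corneal and 18467 limbal normalized reads and 4 of 7 at least 2-fold higher in the limbus. Of the rest, Pi16 and Clec3b had 3 reads or fewer in the cornea, and Pdgfra, with 475 and 325 reads, was higher in the cornea. Dpp4 differed by less than Rarb, 2.08-fold. The Rarb reads for each read of those markers were 0.215 of the corneal value (0.154 to 0.304), or 0.411 without Fmod, which gave 12695 of the 17864 limbal reads.

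Rarg thus made up most of the RAR reads in both tissues, with 96.9% in the cornea (96.5 to 97.3) and 93.9% in the limbus (93.3 to 94.4). The share of Rarb was 0.607% in the cornea (0.454 to 0.795) and 1.60% in the limbus (1.33 to 1.90). Rara, the gene for RAR alpha, had 213 and 354 reads, or 2.49% and 4.52%. Relative to Rarg, Rarb was 2.71-fold higher in the limbus (1.95 to 3.83) and Rara 1.88-fold higher (1.57 to 2.24), and these ratios are free of the scaling. Per kb, Rarg was still 21.3-fold above Rara and 72.7-fold above Rarb in the limbus, compared with 39.9-fold and 197-fold in the cornea.
Among the RXR reads, Rxra had 84.9% in the cornea (83.9 to 85.9) and 80.2% in the limbus (79.1 to 81.2). Rxrb, the gene for RXR beta, had 779 and 1063 reads, or 15.1% (14.1 to 16.1) and 19.1% (18.1 to 20.2). Rxrg, the gene for RXR gamma, had 0 of 5157 RXR reads in the cornea, with an interval that reaches 0.0715%, and 39 reads or 0.702% in the limbus.

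**Figure D4:**
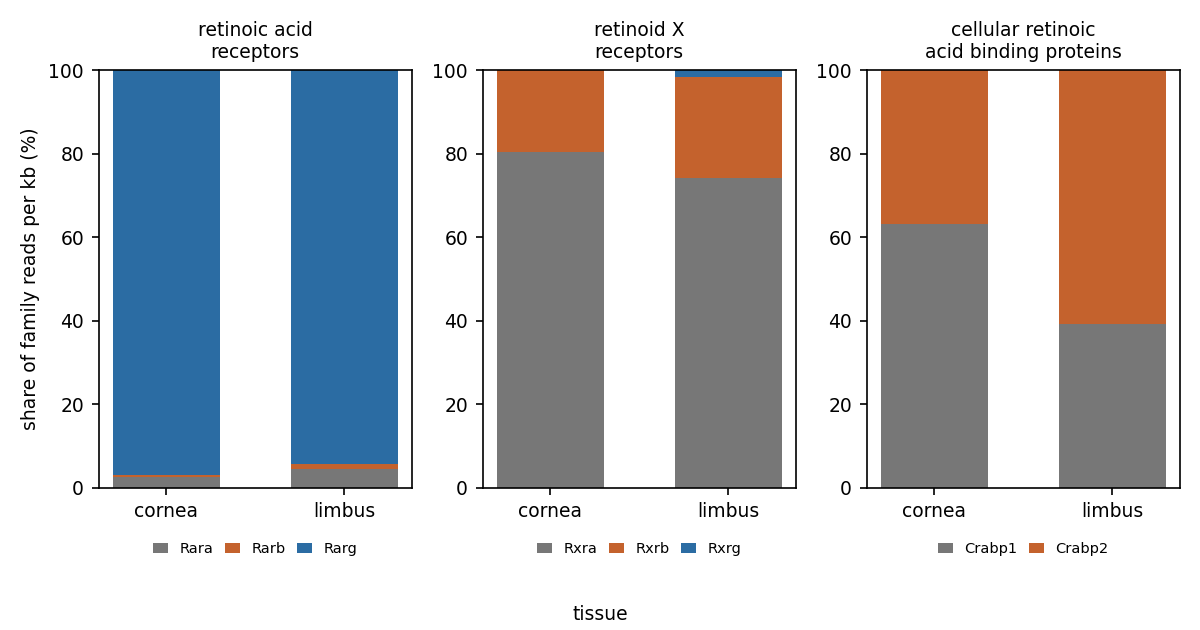
Share of each gene (vertical axis, percent) in the reads per kb of its family in the cornea and limbus (horizontal axis), for the RARs, the RXRs and the cellular retinoic acid binding proteins. Per kb, Rarg holds 97.1% and 94.3% of its family, Rxra 80.3% and 74.1%, and Crabp2 36.9% and 60.8%, in the cornea and limbus.

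The rest of the pathway was described by 81 genes in lists by role. Of the 64 with more than 3 reads in both tissues, 29 had a limbal excess beyond counting error, 28 a corneal excess and 7 were not separated, and their median log2 ratio was 0.10. At least 2-fold differences were found for 16 of them with the limbus higher and for 7 with the cornea higher. Over all 13862 genes these shares were 33.2% and 40.6% beyond counting error and 15.5% and 8.99% past 2-fold, and the counts in each list below are to be read against them.

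The other carriers and uptake genes were mostly higher in the limbus (7 of 9, against 2 in the cornea). Rbp2, which encodes a cytoplasmic retinol carrier best known from the intestine, had the highest level of these carriers, 9968 normalized reads per kb for the cornea and 14361 for the limbus. Rbp7 had 0 corneal and 26 limbal reads, at least 2.84-fold higher with the cornea counted at 3 reads.
Of the carriers past 2-fold, Rbp3, the carrier between photoreceptors and pigment epithelium, had 41 and 440 reads, Ttr, the partner of the serum carrier, 72 and 640, and Rlbp1, the retinal carrier of the pigment epithelium, 22 and 169. The photoreceptor markers, 7 of 7 of them higher in the limbus, summed to 619 corneal and 6145 limbal normalized reads beside them.

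Among the retinol and retinal oxidoreductases, 5 of 15 favored the limbus and 5 the cornea, with a median of 0.00 over the 18 with reads (genes with 3 reads or fewer counted at 3). Adh1, an alcohol dehydrogenase that oxidizes retinol, had the highest level, 14569 normalized reads per kb for the cornea and 17374 for the limbus. The retinol dehydrogenase genes Rdh5, Rdh12 and Rdh16 were 6.89-fold, 5.22-fold and 6.04-fold higher in the limbus. Rdh11, with 449 and 262 reads, and Rdh14, with 532 and 360, were higher in the cornea.
The retinal dehydrogenases, which make retinoic acid, differed from each other. Aldh1a1 had 7369 corneal and 1548 limbal reads and was 4.45-fold higher in the cornea, while Aldh1a3 had 5088 and 5349 reads (log2 ratio 0.17, 0.11 to 0.22). Aldh1a2 had 0 corneal and 271 limbal reads, which with the cornea counted at 3 reads is at least 32.7-fold higher. The retinoic acid hydroxylases, which break retinoic acid down, were also split. Cyp26b1, the most abundant, had 3256 and 2087 reads and was 1.46-fold higher in the cornea, Cyp2s1 was 2.23-fold higher in the cornea, and Cyp26a1, which carries the other DR5 repeat, had 2 corneal and 39 limbal reads (log2 ratio 4.38, 2.43 to 7.48).

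Of 11 retinyl ester and carotenoid enzymes, 6 favored the limbus and 4 the cornea. Lpl, which encodes lipoprotein lipase, had 7 and 137 reads, while Ces1d, a carboxylesterase gene with 9609 and 3868 reads, and the carotenoid oxygenase genes Bco1 and Bco2, with 183 and 73 and with 211 and 77 reads, were more than 2-fold higher in the cornea. The other nuclear receptors were split, 3 of 5 favoring the limbus and 2 the cornea, and Rora, an orphan receptor gene, was 3.26-fold higher in the cornea with 272 and 78 reads. Receptor cofactors were higher in the cornea for 7 of 9, with a median log2 ratio of -0.44. The most abundant cofactor per kb was Ncoa3, at 278 normalized reads for the cornea and 222 for the limbus.

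Genes known to respond to retinoic acid did not all move in one direction, but more of them were higher in the limbus. Of 17 with more than 3 reads in both tissues, 10 favored the limbus, 6 the cornea, and 1 was not separated. At least 2-fold differences were found for 8 with the limbus higher, Stra6, Crabp2 and Rarb among them, and for 1 with the cornea higher. The median log2 ratio was 0.99 over these 17. It was 1.11 over the 20 with reads, where 3 reads or fewer were counted at 3. Another 2 genes had more than 3 reads in the limbus only. The members Stra6, Crabp2, Rarb and Dhrs3 are 4 of the 10. Of the others, Rarres2 (the gene for chemerin) had 54 and 702 reads, Ccn2 (the gene for connective tissue growth factor) 155 and 1762 and Cyp1b1 20 and 44, with the limbus the higher each time. Rarres1 had 196 and 51 reads and was 3.60-fold higher in the cornea, and Tgm2, the transglutaminase gene with the highest level per kb in this list, had 21674 and 10779.

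**Figure D5:**
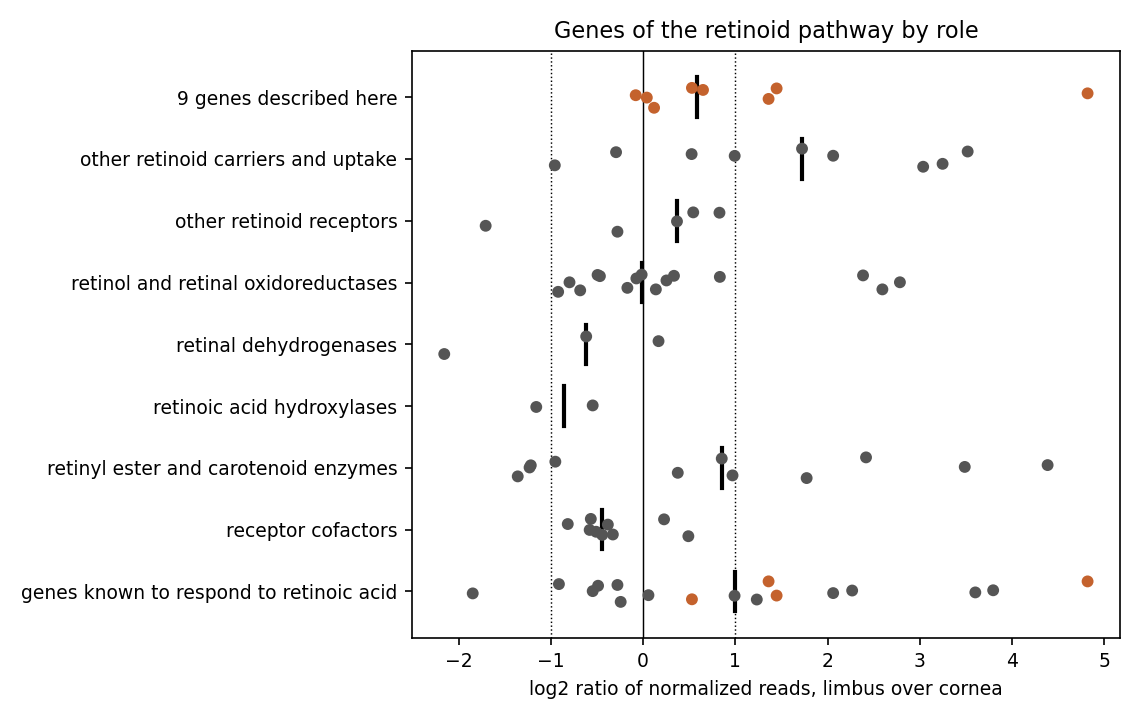
Log2 ratio of normalized reads, limbus over cornea (horizontal axis), of each gene with more than 3 reads in both tissues, by role (vertical axis). Orange points are members, grey points other genes, black bars list medians (0.59 for the members) and dotted lines 2-fold; members that respond to retinoic acid appear in both the first and the last list.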

How the data were processed

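Stranded libraries of total RNA were read from both ends on an Illumina NextSeq. The authors used CLC Genomics Workbench to map the reads to GRCm38 (mm10), naming the trimmed mean of M-values for normalization. The authors deposited 1 table with, for each gene, a mean normalized signal (reads divided by size factors), a log2 fold change, the standard error of that change, and p-values and adjusted p-values. The p-values were not used. Each mean is built from the whole reads of 2 libraries, in which 109 corneal reads weigh as much as 102 limbal ones. For 6143 genes the mean allows 1 pair of read numbers, and for 11299 the log2 fold change and its error, not printed here, decided which pair was taken. For the members the chosen pair missed the deposited values by at most 0.00618 reads and the next best by at least 18.4. Read numbers are therefore derived values. Log2 ratios use the size factors 1.03 (cornea) and 0.967 (limbus).

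Of 40904 rows, 17484 name no gene and were left out. Their share of reads is not given, since their reads were not derived. Accessions in the table did not match their symbols (2 of 18556 found in RefSeq did), so genes were matched by symbol. Adgre1, Bco1, Ccn2 and Stra6l are listed under older symbols, and Pnpla4 was not found. Positions and exon lengths are from GENCODE M21. Intervals are exact Clopper-Pearson (ratios, shares) or Poisson (levels) at 95%. A library with 0 reads was set to 3 reads, and the lower end of the interval is given as the bound. The members and lists were chosen with earlier results of these data known. Named were all members, the gene with the highest level per kb in each list, and listed genes past 2-fold with more than 3 reads in both tissues and at least 50 in all. The values of 2 genes that this rule names are not reported here. Rara, Rxrg, Rbp7, Aldh1a2, Aldh1a3, Cyp26a1, Rdh11, Rdh14 and markers other than those at 0 or highest were named after their values were seen. Python 3.11.15, numpy 2.4.6, pandas 2.3.3, scipy 1.17.1 and matplotlib 3.10.9 were used.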

Additional observations from a re-analysis of the deposited data

How the results depend on the processing

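No paired analysis was possible because values of single samples are not in the table analysed here, and for the same reason leaving out a sample was not run. Depth limits Stra6 (7 corneal reads), Rarb and Rbp4 most. The 3 members at least 2-fold higher in the limbus stayed 3 with scaling to total reads, a trimmed mean of M-values, a pseudocount of 1 and a filter on a mean of at least 10. With scaling to total reads, log2 ratios became 0.13 for Rarg, 0.33 for Rxra, 0.74 for Dhrs3 and 0.86 for Rdh10, the limbus was higher beyond counting error for 7 members in place of 6 and the cornea for 0, and the medians were 0.74 for the members, 1.06 for the retinyl ester and carotenoid enzymes, 0.75 for the other receptors, -0.018 for the retinal dehydrogenases and -0.24 for the cofactors. A pseudocount of 1 moved the median of the hydroxylases from -0.27 to 0.24, and a filter on a mean of at least 50 moved it to -0.85, that of the retinyl ester and carotenoid enzymes from 0.85 to -0.95 and that of the responsive genes from 1.11 to 0.76, since fewer genes enter. Had the next best pair of read numbers been taken, which missed the deposited values by 18.4 reads or more, log2 ratios would be -0.39 for Stra6, -0.30 for Crabp2, -2.71 for Rarb, -6.07 for Crabp1, -0.47 for Rarg, 0.68 for Rxra, 3.16 for Dhrs3 and 3.29 for Rdh10. The trimmed mean of M-values changed none of the 21 results it was run on in direction or beyond the limits used. In an alternative chosen after seeing the data, each marker list lost its marker with the most corneal reads, and the log2 of the ratio of Stra6 to the vessel markers went from 1.11 to -1.45 without Kdr.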
